A study of Mus musculus with 2 samples.

Results

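Bcl3, Nfkbiz and Nfkbid encode the atypical IκB proteins Bcl-3, IκBζ and IκBNS. The 3 genes were taken by name from the 32285 genes counted in single LSK cells of mouse bone marrow, and all 3 passed the filter on low counts over all cells. The classical IκB proteins hold dimers of the transcription factor NF-κB in the cytoplasm until they are degraded on a signal. The atypical members act mainly in the nucleus, where their ankyrin repeats bind NF-κB dimers already on DNA and raise or lower the transcription of chosen genes. Their own genes are switched on by inflammatory signals, so their RNA is known as a feedback layer of the pathway in myeloid and lymphoid cells.

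LSK cells lack markers of mature lineages and carry the surface proteins Sca-1 and Kit, a gate that holds blood stem cells and early progenitors. They were sorted from the leg bones of young IκB-negative mice, named IkBKO in the deposited cell table, and of young wild-type (WT) mice. The sources used here do not name the IκB genes or alleles altered in the IkBKO mice, nor how many mice made up a pool, so each p-value reflects only how these pools varied. Both genotypes of a replicate were tagged with antibodies and run in 1 droplet library, which gave 4 pools in 2 libraries.

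The IkBKO pools held 3962 and 5383 cells (replicates 1 and 2) with 62834572 and 61278938 UMIs, distinct RNA molecules counted at the 3′ ends of transcripts. The WT pools held 3721 and 4963 cells with 43674115 and 42165571 UMIs. The median cell was deeper in IkBKO, at 13709 and 9641 UMIs, against 9963 and 6983 UMIs in WT. Of the cell barcodes, 39 occurred in both libraries. The RNAs of the surface proteins that mark the gate were present in every pool: Ly6a, which encodes Sca-1, stood at 89.6 and 117 CPM in IkBKO and 52.4 and 90.3 CPM in WT, and Kit at 118 and 194 CPM in IkBKO and 199 and 272 CPM in WT. CPM are UMIs of a gene per 1000000 UMIs of the cells summed. Nfkbie, which encodes the classical inhibitor IκBε, stood at 2.04 and 1.97 CPM in IkBKO and 9.11 and 12.1 CPM in WT. This is no check of the genotype label unless the tag lies within an altered part, which the sources used here do not state.

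Bcl3 (ENSMUSG00000053175) lies on the minus strand of mm10 at chr7:19808462-19822770, Nfkbid (ENSMUSG00000036931) on the plus strand of the same chromosome at chr7:30421732-30428746, and Nfkbiz (ENSMUSG00000035356) on the minus strand at chr16:55811375-55838899. All are protein-coding in GENCODE vM21. The RefSeq promoter table (GRCm38.p6) matched Bcl3 and Nfkbid, with 1 and 3 start sites, but not Nfkbiz. It was searched on both strands for the κB consensus, the motif that NF-κB dimers bind, because feedback of NF-κB on its own regulators runs through such motifs. The windows with a match are shown from 250 bases before the start to 30 bases after it, 5′ to 3′ on the gene's strand, with matches in capitals. The Bcl3 window covers chr7:19822726-19823005 (minus strand), and the window of the second Nfkbid start covers chr7:30422156-30422435 (plus strand).

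Bcl3: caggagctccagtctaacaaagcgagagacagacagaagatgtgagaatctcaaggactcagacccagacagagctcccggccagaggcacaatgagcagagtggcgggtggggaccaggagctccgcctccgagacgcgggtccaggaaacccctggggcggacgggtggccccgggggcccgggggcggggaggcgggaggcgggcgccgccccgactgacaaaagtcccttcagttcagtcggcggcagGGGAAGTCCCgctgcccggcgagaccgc
Nfkbid: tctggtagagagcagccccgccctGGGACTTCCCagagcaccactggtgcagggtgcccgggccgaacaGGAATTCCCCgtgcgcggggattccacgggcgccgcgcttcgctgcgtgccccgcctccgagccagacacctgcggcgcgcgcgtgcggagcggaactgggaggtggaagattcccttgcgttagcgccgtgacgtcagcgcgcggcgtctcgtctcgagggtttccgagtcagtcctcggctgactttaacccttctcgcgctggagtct

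The Bcl3 match, GGGAAGTCCC, begins at base 3 of the transcript (chr7:19822744-19822753) and reads as the consensus on both strands. The Nfkbid window holds GGGACTTCCC, 226 bases before the start (chr7:30422180-30422189) and a match on both strands, and GGAATTCCCC, 181 bases before it (chr7:30422225-30422234) and a match on the opposite strand. The windows of the other Nfkbid starts hold no match, which says only that these letters are not in those windows. The consensus occurred in 2607 of 32851 promoter windows of the same length (7.94%) and in at least 1 window of 2428 of 27025 genes (8.98%). A match describes the sequence and is not evidence of binding.

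Over all LSK cells, the member genes differed in direction: Bcl3 RNA was higher in IkBKO cells, and Nfkbiz and Nfkbid RNA were lower. Bcl-3 binds the NF-κB subunits p50 and p52, carries a domain that can activate transcription and can also hold repressive dimers on DNA. Bcl3 had 1033 and 789 UMIs in IkBKO, which is 16.4 and 12.9 CPM, against 365 and 272 UMIs in WT, which is 8.36 and 6.45 CPM. Within each library the IkBKO level was close to double the WT level. The log2 fold change of IkBKO over WT was 1.08 ± 0.10 (SE, adjusted p = 0.0046, edgeR quasi-likelihood test with the library as a block and Benjamini-Hochberg adjustment over 14742 genes).

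IκBζ, the product of Nfkbiz, is needed in mouse macrophages for a set of late inflammatory genes such as Il6 and Lcn2. Nfkbiz had 355 and 493 UMIs in IkBKO (5.65 and 8.05 CPM) and 453 and 560 UMIs in WT (10.4 and 13.3 CPM). The IkBKO pool of replicate 2 lay closer to WT than that of replicate 1. The log2 fold change was −0.71 ± 0.11 (SE, edgeR adjusted p = 0.019).

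IκBNS, the product of Nfkbid, is needed in mice for B-1 cells and normal antibody responses. Nfkbid had 480 and 343 UMIs in IkBKO (7.64 and 5.60 CPM) and 491 and 390 UMIs in WT (11.2 and 9.25 CPM). For this gene replicate 1 was above replicate 2 in both genotypes. The log2 fold change was −0.55 ± 0.13 (SE), and its edgeR adjusted p of 0.045 lay just inside the threshold of 0.05.

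All 3 genes were thus called, 1 higher and 2 lower. Of all genes tested, 13.3% were called, 7.13% as higher and 6.19% as lower. Leaving out the library block ended all 3 calls. Fits that left out 1 pool also had no block, so their lost calls do not show the part of a single pool. For Nfkbid the fold change was −0.24 without IkBKO replicate 2, −0.30 without WT replicate 1 and −0.88 without IkBKO replicate 1, and DESeq2 with the block did not call it (−0.53, adjusted p = 0.17).

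**Figure D1:**
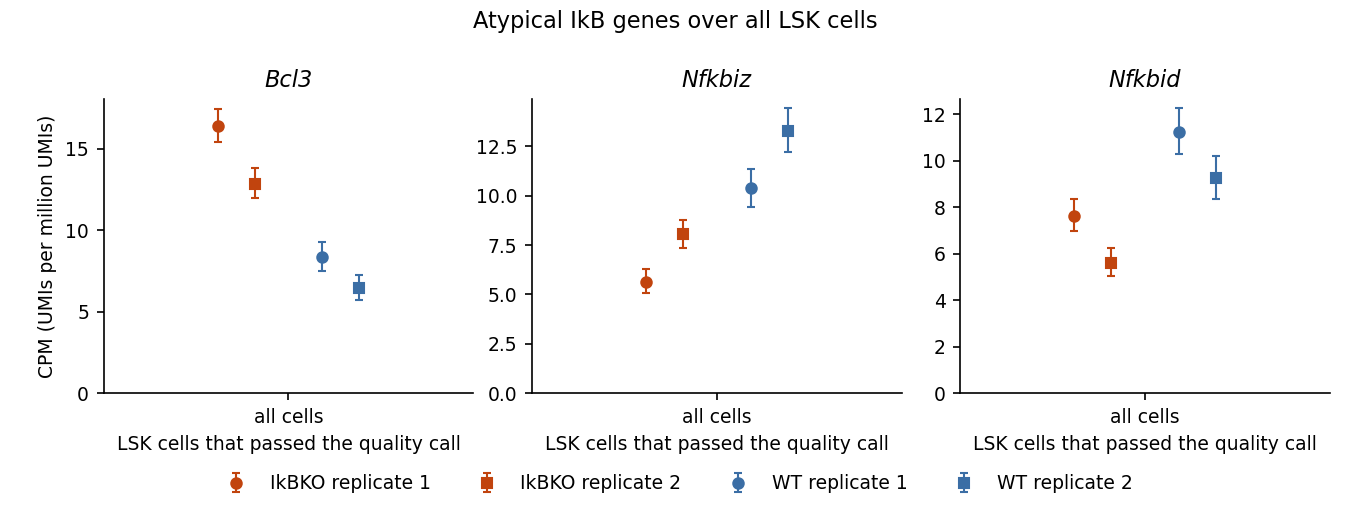
CPM of each gene over all LSK cells, with 1 point per pool (IkBKO left of WT) and bars for exact 95% Poisson intervals, which cover counting error only. Bcl3 stands at 16.4 and 12.9 CPM in IkBKO and 8.36 and 6.45 CPM in WT, while both other genes are lower in IkBKO.

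Few cells carried a UMI of these genes. At full depth, Bcl3 was seen in 20.6% and 12.4% of IkBKO cells and in 8.71% and 4.90% of WT cells. After thinning of each cell to 5000 UMIs, which left out 102 and 503 IkBKO and 188 and 956 WT cells, the Bcl3 shares were 8.58% and 6.74% in IkBKO and 4.302% and 2.92% in WT. The direction of the CPM difference was therefore also that of the shares at equal depth.

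At full depth, Nfkbiz was seen in 7.93% and 8.38% of IkBKO cells and in 10.7% and 9.87% of WT cells. The thinned shares were 3.29% and 4.24% in IkBKO and 5.41% and 6.19% in WT. Nfkbid was seen in 10.6% and 5.98% of IkBKO cells and in 11.7% and 7.19% of WT cells at full depth, and in 3.76% and 2.89% of IkBKO and 5.43% and 4.54% of WT cells after thinning. For comparison, cells with at least 5 UMIs of Car1 formed the gate with the lowest mean levels of all 3 genes. Its IkBKO cells carried Bcl3 in 3.95% and 1.34%, Nfkbiz in 4.35% and 4.02% and Nfkbid in 1.98% and 5.36%, at median depths of 9960 and 18893 UMIs. Its 52 and 9 WT cells carried Bcl3 in 0% and 0%, Nfkbiz in 3.85% and 0% and Nfkbid in 3.85% and 0%. Free RNA was not measured, so these shares do not separate it from RNA of the cells. In IkBKO replicate 2 the Nfkbid share was close to that of its deeper Car1 gate. Of all 18029 cells, 1718 had a single UMI of Bcl3, 1483 of Nfkbiz and 1386 of Nfkbid, and no cell had more than 6.

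The 5 gates follow genes of different fates: Mecom, a stem cell transcription factor, Dntt, the DNA polymerase of early lymphoid cells, Mpo, the peroxidase of granulocyte and monocyte progenitors, Pf4, a platelet granule chemokine, and Car1, a carbonic anhydrase of early red cell progenitors. They required at least 1, 3, 20, 3 and 5 UMIs, and 9469 cells passed 1 gate, 1154 passed 2, 34 passed 3 and 7372 passed none. Because a gate is a UMI minimum and IkBKO cells were deeper, the numbers of cells behind the gates depend on depth. With the gate gene left out, the rest of the stem cell markers summed to 271 and 528 CPM in IkBKO and 490 and 834 CPM in WT cells of the Mecom gate. Likewise the rest of the lymphoid markers summed to 624 to 790 CPM in the Dntt gate, of the granulocyte and myeloid markers to 6230 to 12751 CPM in the Mpo gate, of the megakaryocyte markers to 223 to 583 CPM in the Pf4 gate and of the erythroid markers to 322 to 487 CPM in the Car1 gate. In every pool each of these sums was higher than in the other 4 gates.

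Bcl3 was highest on average in the Mecom gate and lowest in the Car1 gate. In the Mecom gate it stood at 19.0 and 12.1 CPM in IkBKO and 10.9 and 7.68 CPM in WT, and its mean over the pools was 12.4 ± 4.77 CPM (SD, n = 4). The means of the Mpo gate (9.30 ± 3.50), the Dntt gate (8.50 ± 4.17) and the Pf4 gate (6.88 ± 1.72) followed. These neighbours overlapped in their spread: the Mecom gate was above the Mpo gate in 3 of 4 pools and the Mpo gate above the Dntt gate in 3 of 4. The Dntt gate was above the Pf4 gate in only 2 of 4. The Car1 gate stood at 2.79 and 0.632 CPM in IkBKO. It held 10 and 3 Bcl3 UMIs in IkBKO and 0 and 0 in WT, where 3 UMIs, the limit that a count of 0 allows, would be 3.07 and 15.3 CPM. The WT Car1 gate had only 52 and 9 cells, and in replicate 2 its limit lay above the Pf4 gate (4.72 CPM), so no order could be read there, whereas in the other 3 pools it was the lower.

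Nfkbiz shared its top place between the lymphoid and the stem cell gate. The Dntt gate stood at 11.3 and 8.16 CPM in IkBKO and 11.9 and 15.8 CPM in WT, a mean of 11.8 ± 3.14 CPM (SD, n = 4). The Mecom gate, at 8.72 and 9.71 CPM in IkBKO and 13.1 and 13.5 CPM in WT, had a mean of 11.3 ± 2.40 CPM, and each of these gates was the higher in 2 of 4 pools. Both were above the Pf4 gate (5.81 ± 4.53) and the Mpo gate (4.85 ± 1.13) by their means, and the Car1 gate stood at 3.07 and 2.11 CPM in IkBKO, with 2 and 0 UMIs in WT. The Pf4 value of WT replicate 2, 12.3 CPM, set that gate's wide spread, since the other pools lay between 2.09 and 5.47 CPM.

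Nfkbid was highest on average in the Dntt gate, at 7.78 and 7.88 CPM in IkBKO and 15.8 and 12.0 CPM in WT (mean 10.9 ± 3.83, SD, n = 4). The Mpo gate followed at 8.89 ± 2.94 and the Mecom gate at 7.57 ± 1.79 CPM, and the order of each neighbouring pair held in 2 of 4 pools. The Pf4 gate averaged 5.44 ± 2.73 CPM. The Car1 gate stood at 1.67 and 2.95 CPM in IkBKO, with 3 and 0 UMIs in WT, and was below the Pf4 gate in 3 pools. In WT replicate 2 the limit of 3 UMIs, 15.3 CPM, lay above the Pf4 value of 9.45 CPM. By mean CPM, the Mpo gate ranked next to the top for Nfkbid and below the Pf4 gate for Nfkbiz. The Nfkbiz order held in 3 of 4 pools, in IkBKO replicate 1 by only 3.41 against 3.37 CPM. It was not seen in the edgeR fit over cells that passed exactly 1 gate. There Nfkbiz was at −0.46 ± 0.21 log2 (SE) in the Mpo gate and −0.59 ± 0.29 in the Pf4 gate.

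Each gate was then tested against the mean of the other 4, on sums of the cells that passed exactly 1 gate (20 sums, edgeR with pool as a block, over 12063 genes). In the Mecom gate, where 31.8% of all genes were higher and 22% lower, Bcl3 (1.46 ± 0.17 log2, SE, adjusted p = 1.6e-07) and Nfkbiz (1.20 ± 0.17, adjusted p = 1.6e-06) were higher and Nfkbid was at 0.11 ± 0.17 (adjusted p = 0.63). In the Dntt gate, where 21.8% of all genes were higher and 15.6% lower, all 3 were higher: Bcl3 by 0.66 ± 0.20 (adjusted p = 0.012), Nfkbiz by 1.31 ± 0.18 and Nfkbid by 1.01 ± 0.17. In the Mpo gate, where 25.6% of all genes were higher and 25.7% lower, Bcl3 (0.90 ± 0.19) and Nfkbid (0.71 ± 0.17) were higher, and Nfkbiz was at −0.46 ± 0.21 and did not pass (adjusted p = 0.068). In the Pf4 gate, where 10.7% of all genes were higher and 7.64% lower, none of the 3 passed in edgeR (log2 values between −0.59 and 0.11).

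In the Car1 gate, where 23.4% of all genes were higher and 24.7% lower, all 3 were lower: Bcl3 was at −3.12 ± 0.38 log2, Nfkbiz at −1.46 ± 0.34 and Nfkbid at −1.26 ± 0.31. With cells thinned to 5000 UMIs, 5 calls were lost while the values kept their direction: Bcl3 was at 0.59 in the Dntt and 0.63 in the Mpo gate (adjusted p = 0.10 and 0.073), Nfkbid at 0.65 in the Mpo and −1.46 in the Car1 gate (adjusted p = 0.13 and 0.066) and Nfkbiz at −1.37 in the Car1 gate (adjusted p = 0.087). The gates were drawn anew on the thinned counts, so fewer cells passed them. In IkBKO replicate 2 the Mpo gate held 109 cells after thinning, against 510 at full depth. On these fewer cells and UMIs the SEs were larger, at 0.28 to 0.61. The calls in the Mecom gate, and those of Nfkbiz and Nfkbid in the Dntt gate and Bcl3 in the Car1 gate, held.

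**Figure D2:**
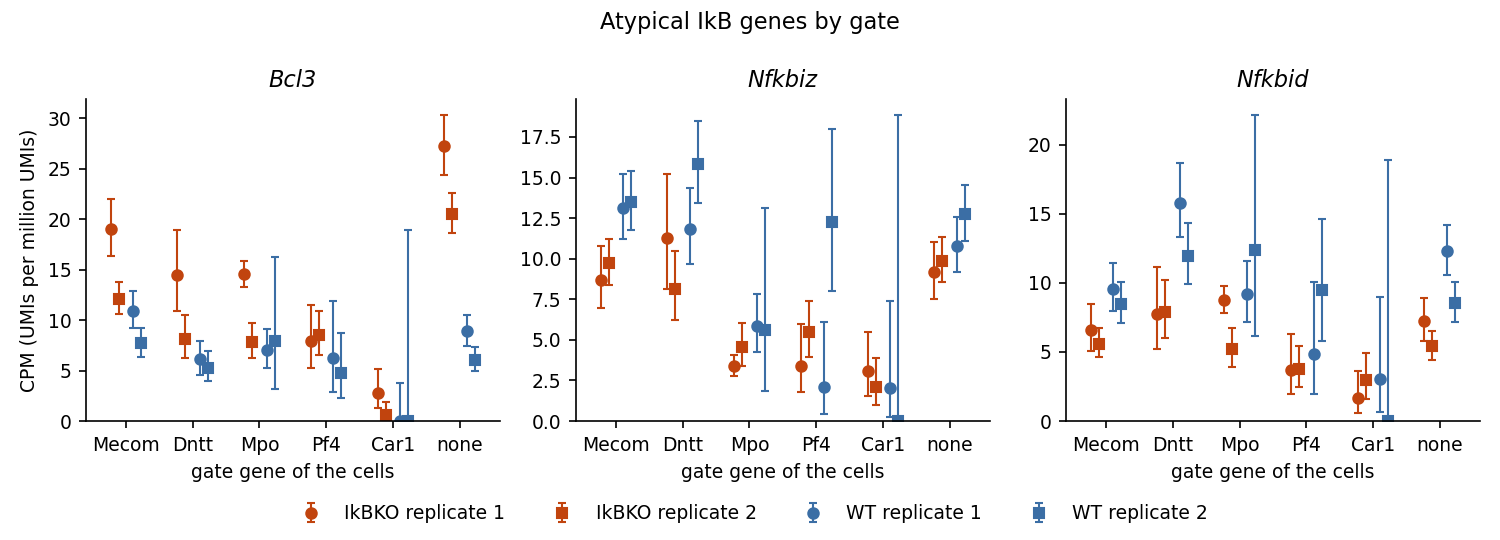
CPM of each gene in cells of each gate and in cells that passed no gate, with 1 point per pool (IkBKO left of WT) and bars for exact 95% Poisson intervals. The Car1 gate lies lowest for all 3 genes in both IkBKO pools, and Bcl3 in cells of no gate stands at 27.2 and 20.5 CPM in IkBKO, against 8.91 and 6.04 CPM in WT.

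Within the stem cell gate, Bcl3 was higher and Nfkbiz lower in IkBKO, as over all cells. The Mecom gate held 738 and 1714 IkBKO cells and 1106 and 1761 WT cells. There Bcl3 differed by 0.77 ± 0.13 log2 (SE, edgeR adjusted p = 0.0045) and Nfkbiz by −0.48 ± 0.13 (adjusted p = 0.043), while Nfkbid, at 6.62 and 5.61 CPM in IkBKO and 9.57 and 8.49 CPM in WT, did not pass (−0.53 ± 0.17, adjusted p = 0.074). In this gate 10.6% of genes were called, 6.2% as higher and 4.37% as lower. Granulocyte and myeloid markers, all 5 of them detected, summed to 3482 and 1537 CPM in IkBKO and 1446 and 474 CPM in WT cells of this gate, the 6 monocyte and dendritic markers to 664 and 575 CPM in IkBKO and 179 and 260.0 CPM in WT, and their part in these differences was not tested. The Nfkbiz difference was −0.22 in cells that passed exactly 1 gate and −0.23 after thinning and was then not called, without cells with a Fos UMI it was −0.05 (adjusted p = 0.92), and DESeq2 called neither Bcl3 (0.77, adjusted p = 0.23) nor Nfkbiz (−0.49, adjusted p = 0.89).

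In the lymphoid gate, Bcl3 was higher and Nfkbid lower in IkBKO. The Dntt gate held 264 and 527 IkBKO cells and 748 and 962 WT cells. Bcl3 stood at 14.5 and 8.16 CPM in IkBKO and 6.10 and 5.27 CPM in WT (1.01 ± 0.24 log2, SE, edgeR adjusted p = 0.0011), and Nfkbid differed by −0.70 ± 0.21 (adjusted p = 0.010). Nfkbiz did not pass (−0.50 ± 0.20, adjusted p = 0.086), and its groups nearly met, at 11.3 CPM in IkBKO replicate 1 and 11.9 CPM in WT replicate 1. In this gate the 6 monocyte and dendritic markers summed to 988 and 628 CPM in IkBKO and 245 and 269 CPM in WT, the 5 granulocyte and myeloid markers to 1163 and 1098 CPM in IkBKO and 710.4 and 455 CPM in WT, and the 4 B cell markers to 135 and 166 CPM in IkBKO and 46.4 and 81.2 CPM in WT, all of them detected, and their part in these differences was not tested. In this gate 12.8% of genes were called, 6.81% as higher and 5.95% as lower. Thinning ended the Bcl3 call (0.80, adjusted p = 0.27), the restriction to cells of exactly 1 gate ended the Nfkbid call (−0.60, adjusted p = 0.096), the exclusion of cells with a Fos UMI ended it too (−0.48, adjusted p = 0.23), and DESeq2 made neither call.

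In the myeloid and platelet gates no member passed. The Mpo gate held 1473 and 510 IkBKO cells but only 339 and 40 WT cells, and 0.302% of genes were called there, 0.164% as higher and 0.138% as lower. Bcl3 stood at 14.5 and 7.81 CPM in IkBKO and 7.0 and 7.88 CPM in WT, so that the groups overlapped (0.83 ± 0.33 log2, SE, edgeR adjusted p = 1.0). Nfkbiz was at −0.63 ± 0.37 and Nfkbid at −0.40 ± 0.35 log2. The summed level of the mature neutrophil markers, all 6 of them detected in this gate, was 259 and 530 CPM in IkBKO but 815 and 9003 CPM in WT, and its part in these values was not tested. In the Pf4 gate, where 1.46% of genes were called (0.73% in each direction), the values were 0.66 ± 0.40 for Bcl3, −0.71 ± 0.44 for Nfkbiz and −0.98 ± 0.44 for Nfkbid. There Nfkbiz stood at 3.41 and 5.47 CPM in IkBKO and 2.09 and 12.3 CPM in WT. It was thus higher in IkBKO in replicate 1 and lower in replicate 2. In the Car1 gate, where 3.46% of genes were called (1.79% as higher and 1.67% as lower), the 3 genes did not pass the filter on low counts.

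Cells that passed none of the gates gave the largest Bcl3 difference of the groups fitted. They were examined after the gate values had been seen and numbered 1198 and 2330 in IkBKO and 1560 and 2284 in WT. Bcl3 stood at 27.2 and 20.5 CPM in IkBKO and 8.91 and 6.04 CPM in WT, a log2 fold change of 1.71 ± 0.13 (SE, edgeR adjusted p = 9.6e-06), and 12.4% of genes were called, 7.5% as higher and 4.89% as lower. Nfkbid was lower there (−0.68 ± 0.16, adjusted p = 0.018) and Nfkbiz did not pass (−0.28 ± 0.15, adjusted p = 0.26). Without cells with a Fos UMI the Nfkbid difference was −0.31 and not called (adjusted p = 0.36), and without cells of at least 20 Cd74 UMIs the Nfkbiz difference was −0.59 and called (adjusted p = 0.048). The difference of the Bcl3 effect between these cells and the Mecom gate was 0.90 ± 0.28 log2 and did not pass over all genes (adjusted p = 0.55, 0.00779% of genes called). A test of the genotype effect over the 5 gates called 0.0567% of genes and none of the 3 members (edgeR adjusted p = 1 for each).

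**Figure D3:**
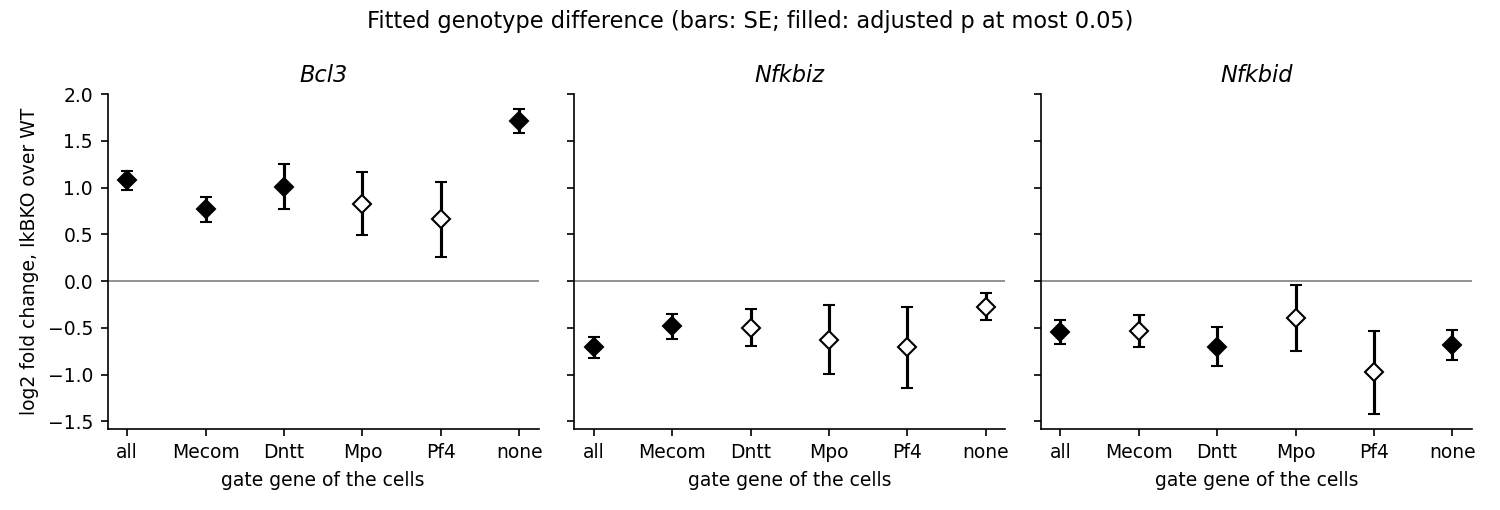
Log2 fold change of IkBKO over WT for each gene over all LSK cells, in each gate that could be fitted and in cells of no gate, with bars for the SE of the edgeR fit. All fitted Bcl3 values lie above 0, from 0.66 in the Pf4 gate to 1.71 in cells of no gate, and all fitted Nfkbiz and Nfkbid values lie below 0. The groups share cells, so these values are not independent.

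The Bcl3 difference was followed into cells rich in Cd74, the invariant chain of MHC class II, since the IkBKO pools held more of them. Cells with at least 20 Cd74 UMIs numbered 201 and 361 in IkBKO and 51 and 41 in WT. In them, Bcl3 stood at 72.8 and 68.7 CPM in IkBKO and 22.03 and 8.35 CPM in WT, from 132 and 219 UMIs in IkBKO and 13 and 5 UMIs in WT. In the remaining cells it stood at 14.8 and 9.81 CPM in IkBKO and 8.17 and 6.42 CPM in WT. The IkBKO cells rich in Cd74 were thus well above every other group, with intervals that did not meet those of WT.

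These cells gave 12.8% and 27.8% of all Bcl3 UMIs in IkBKO and 3.56% and 1.84% in WT, from 2.88% and 5.20% of all UMIs in IkBKO and 1.35% and 1.42% in WT. They also differed in kind between genotypes: Il4i1, a marker of mature dendritic cells, stood at 168 and 198 CPM in IkBKO and 10.2 and 8.35 CPM in WT, and Fscn1, an actin-bundling protein of the same cells, at 94.4 and 109 CPM in IkBKO and 0 and 26.7 CPM in WT. Ccr7, the homing receptor that completes this list of 3 markers, stood at 6.62 and 5.02 CPM in IkBKO and 6.78 and 30.04 CPM in WT, and the list summed to 269 and 313 CPM in IkBKO and 16.9 and 65.1 CPM in WT. In the same cells, markers of other types also differed: stem cell markers summed to 69.5 and 125 CPM in IkBKO and 251 and 414 CPM in WT, B cell markers to 59.0 and 94.8 CPM in IkBKO and 164 and 230.3 CPM in WT, and mature neutrophil markers to 59.0 and 2038 CPM in IkBKO and 1576 and 8194 CPM in WT. The Bcl3 levels of the Cd74-rich cells are therefore those of differently mixed cells, and the part of this mixture was not tested. Without the cells rich in Cd74, Bcl3 remained called over all LSK cells, at 0.84 log2 (edgeR adjusted p = 0.011), and in cells of no gate, at 1.16 (adjusted p = 0.0012). Nfkbiz then differed by −0.82 and Nfkbid by −0.58, and both stayed called. In the Cd74-rich cells themselves, Nfkbiz (17.1 and 22.9 CPM in IkBKO, 8.47 and 18.4 CPM in WT) and Nfkbid (16.002 and 8.48 CPM in IkBKO, 15.3 and 10.0 CPM in WT) had overlapping counting intervals between genotypes.

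**Figure D4:**
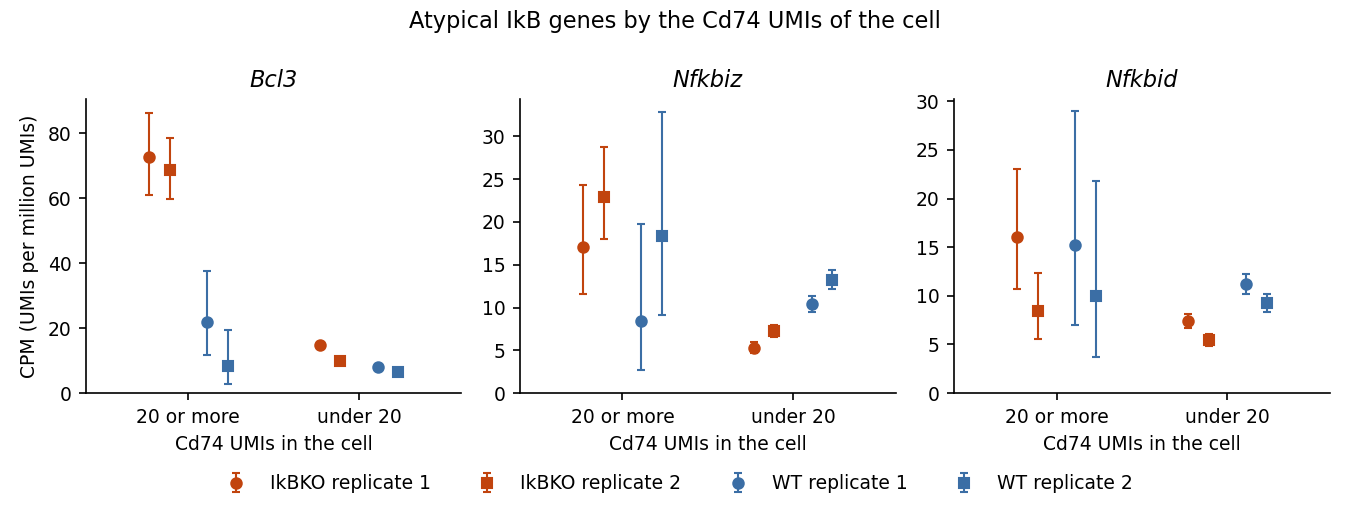
CPM of each gene in cells with at least 20 Cd74 UMIs and in all other LSK cells, with 1 point per pool (IkBKO left of WT) and bars for exact 95% Poisson intervals. Bcl3 reaches 72.8 and 68.7 CPM in the Cd74-rich IkBKO cells, against 22.03 and 8.35 CPM in WT, whereas the other cells lie between 6.42 and 14.8 CPM.

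Most immediate-early genes, whose transcripts cells make within minutes of a stimulus, were lower in IkBKO, as Nfkbiz and Nfkbid were. Of 15 such genes tested over all LSK cells, 12 were lower in IkBKO and 0 higher, beside 6.19% lower and 7.13% higher of all genes tested (median log2 fold change −1.19, against −0.01 over all genes tested). Fos, a subunit of the transcription factor AP-1, stood at 12.7 and 16.8 CPM in IkBKO and 78.1 and 109 CPM in WT (−2.56 ± 0.08, SE, edgeR adjusted p = 4.3e-04). Zfp36, which encodes an RNA-destabilizing protein, differed by −1.46 ± 0.10 and Btg2, an inhibitor of growth, by −1.19 ± 0.08.

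The 3 genes were then described by the Fos UMIs of the cell, a split chosen after the values had been seen. Cells with any Fos UMI made up 14.5% and 12.3% of IkBKO and 35.1% and 27.6% of WT cells. They held 17.5% and 14.3% of all UMIs in IkBKO and 38.2% and 31.7% in WT. Of the Nfkbiz UMIs they held 14.9% and 16.2% in IkBKO, but 51.7% and 53.8% in WT. Nfkbiz stood at 5.83 and 7.86 CPM in IkBKO cells with no Fos UMI and at 8.12 and 9.0 CPM in such WT cells. In cells with 1 or 2 Fos UMIs it stood at 4.82 and 9.23 CPM in IkBKO and 11.4 and 16.5 CPM in WT, and in cells with at least 3 at 4.79 and 8.50 CPM in IkBKO and 18.3 and 29.1 CPM in WT. The WT level was higher in each class with more Fos UMIs in both replicates, and neither IkBKO replicate showed such an order; there the class with at least 3 held only 39 and 76 cells and 4 and 10 Nfkbiz UMIs.

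Nfkbid in IkBKO stood at 7.83 and 5.46 CPM in cells with no Fos UMI, 6.79 and 5.94 CPM with 1 or 2 and 5.99 and 9.35 CPM with at least 3. In WT it stood at 9.45 and 7.71 CPM with none, 13.1 and 8.73 CPM with 1 or 2 and 15.8 and 16.7 CPM with at least 3. It was thus higher in each class with more Fos UMIs in IkBKO replicate 2 and both WT pools, and lower in each in IkBKO replicate 1. Bcl3 stood at 16.8 and 13.2 CPM in IkBKO cells with no Fos UMI and at 7.97 and 5.98 CPM in such WT cells, and at 20.4 and 10.2 CPM in IkBKO and 9.39 and 9.06 CPM in WT cells with at least 3. Without all cells that had a Fos UMI, the Bcl3 difference over all LSK cells was 1.19 log2 and called. The Nfkbiz difference was then −0.26 (edgeR adjusted p = 0.22) and the Nfkbid difference −0.30 (adjusted p = 0.16), and neither was called. In cells of no gate without a Fos UMI, Nfkbiz turned to 0.28 (adjusted p = 0.34).

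**Figure D5:**
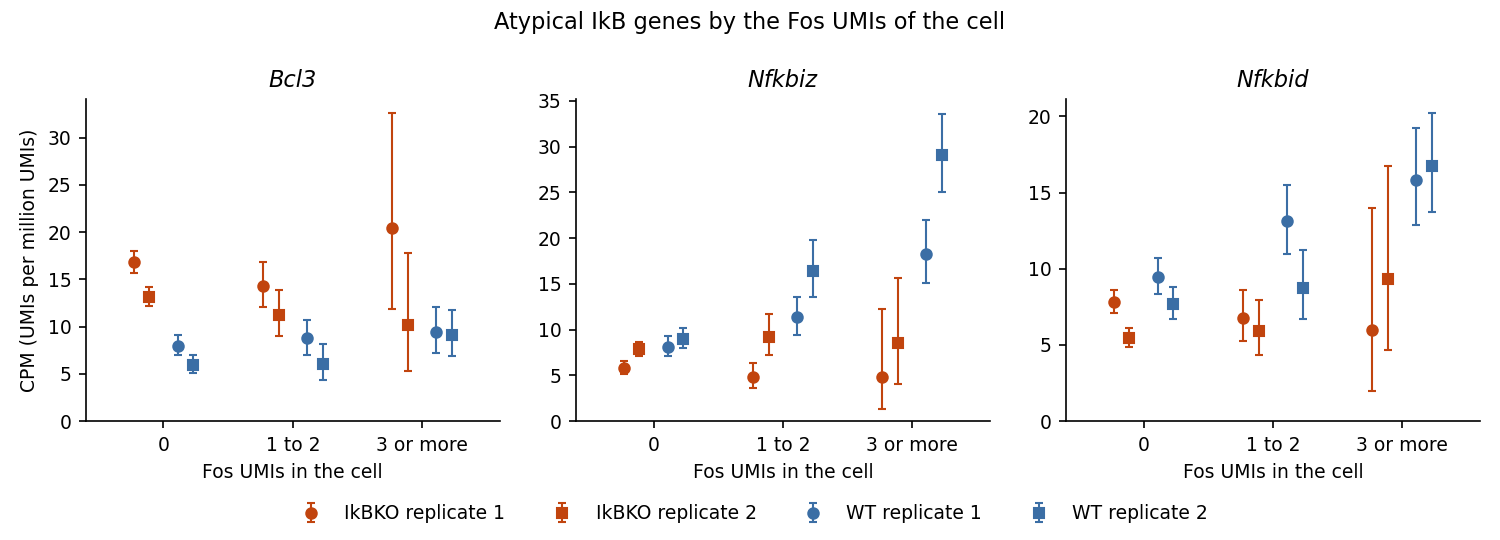
CPM of each gene in cells with no Fos UMI, with 1 or 2 and with at least 3, with 1 point per pool (IkBKO left of WT) and bars for exact 95% Poisson intervals. Nfkbiz in WT reaches 18.3 and 29.1 CPM with at least 3 Fos UMIs, against 8.12 and 9.0 CPM with none, while Bcl3 lies higher in IkBKO than in WT in every class.

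The make-up of the pools by gate also differed. Cells that passed only the Dntt gate were 5.78% and 8.08% of IkBKO and 16.8% and 15.7% of WT cells, and cells that passed only the Mpo gate were 34.0% and 7.12% of IkBKO and 7.93% and 0.604% of WT cells. With all pools set to one gate composition, the Bcl3 difference was 1.15 log2 (edgeR adjusted p = 0.0090), the Nfkbiz difference −0.33 (adjusted p = 0.25) and the Nfkbid difference −0.67 (adjusted p = 0.070). Only Bcl3 was then called. Calls were fewer over all genes as well, at 453 of 14655 genes tested, against 1964 of 14742 before re-weighting. In WT replicate 2 this setting raised cells that passed only the Mpo gate from 0.604% to 12.4%. It raised cells that passed only the Car1 gate there from 0.141% to 2.755%. The whole Mpo gate of that pool held 40 cells, with 7 Bcl3, 5 Nfkbiz and 11 Nfkbid UMIs. The re-weighted values thus lean heavily on few cells.

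Among the proteins the members bind or share a pathway with, 2 of 8 other IκB and NF-κB genes were higher and 2 lower in IkBKO (median log2 fold change −0.12), beside 7.13% higher and 6.19% lower of all genes tested. The classical inhibitors Nfkbie (−2.30 ± 0.18, SE) and Nfkbib (−1.19 ± 0.13) were lower, and the subunits of the alternative NF-κB pathway Relb (0.92 ± 0.14) and Nfkb2 (0.65 ± 0.13), whose product p52 is a partner of Bcl-3, were higher. The altered IκB genes of the IkBKO mice are not named in the sources used here. Whether Nfkbie or Nfkbib is itself an altered gene is therefore not known, and their low values cannot be read as a response. Nfkb1, which encodes p50, was at 0.23 ± 0.08 and did not pass (edgeR adjusted p = 0.10), nor did Rela (−0.08), Rel (−0.17) or Nfkbia (−0.17). Without the cells rich in Cd74, Relb was at 0.48 (adjusted p = 0.14) and Nfkb2 at 0.43 (adjusted p = 0.12), and neither was called, unlike Bcl3.

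Of 12 genes for the kinases that start the pathway and for its modulators, 2 were higher and 0 lower (median 0.15), beside 7.13% higher and 6.19% lower of all genes tested. Tnfaip3, the ubiquitin-editing inhibitor A20, stood at 6.81 and 9.20 CPM in IkBKO and 3.85 and 4.63 CPM in WT (1.00 ± 0.14, SE, edgeR adjusted p = 0.013), and its partner Tnip1 differed by 0.36 ± 0.08 (adjusted p = 0.040; DESeq2 adjusted p = 0.12). Traf2, an adaptor at cytokine receptors, did not pass (0.28 ± 0.09, adjusted p = 0.081).

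Of 6 genes known to act on the RNA or protein of a member, edgeR and DESeq2 called 0, and 1 had an unadjusted edgeR p under 0.05 (median −0.08). That gene was Gsk3b, a kinase that marks Bcl-3 for degradation, at −0.24 ± 0.07 log2 (SE, edgeR adjusted p = 0.085). Of all genes tested, edgeR called 13.3%, and 4865 of 14742 had an unadjusted edgeR p under 0.05, so 1 such gene in this list does not stand out. Zc3h12a, which encodes the RNase Regnase-1 that degrades inflammatory RNAs, Nfkbiz among them, stood at 7.77 and 8.31 CPM in IkBKO and 9.46 and 7.59 CPM in WT. The Roquin genes Rc3h1 (−0.15 ± 0.10) and Rc3h2 (0.01 ± 0.09), which encode RNA-binding repressors, did not pass either.

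Of 10 genes tied to a member in other cells, 6 passed the filter, and 1 of these was lower and 0 higher, beside 6.19% lower and 7.13% higher of all genes tested. Camp, an antimicrobial peptide gene tied to IκBζ and a gene of maturing neutrophils, stood at 13.8 and 30.4 CPM in IkBKO and 139 and 201 CPM in WT (−2.94 ± 0.15 log2, SE, edgeR adjusted p = 0.0019). The 6 mature neutrophil markers, of which Camp is one, summed to 167 and 201 CPM in IkBKO and 1344 and 1160 CPM in WT over all LSK cells, and their part in the Camp value was not tested. Lcn2, an iron-scavenging protein of neutrophils, was at 21.6 and 7.98 CPM in IkBKO and 41.1 and 29.2 CPM in WT and did not pass (−1.28 ± 0.29, adjusted p = 0.081), but was called with all pools set to one gate composition (−1.78, adjusted p = 0.0024). That setting raised the share of cells that passed only the Mpo gate in WT replicate 2 from 0.604% to 12.4%. Mature neutrophil markers summed to 9003 CPM in the Mpo gate of that pool, and their part in this call was not tested. Il6, a cytokine gene, had at most 0.605 CPM in any pool and did not pass (2.07 ± 0.71, adjusted p = 0.11).

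The genes most like each member across gates and pools were found by Pearson's r of log2(CPM + 1) over 20 values, from 8037 genes with a mean of at least 10 CPM. The points share 4 pools and cells that passed several gates, so r is a description. For Bcl3 these included H2-DMb1, which loads peptides onto MHC class II (0.952), and Hcst, a signalling adaptor (0.919). Without the Car1 gate, r over 16 values was 0.837 for H2-DMb1 and 0.222 for Hcst. For Nfkbiz they were Paxx, a DNA repair factor (0.969), 2610307P16Rik (0.956) and Ppcdc, an enzyme of coenzyme A synthesis (0.955), with r of 0.932, 0.923 and 0.928 without the Car1 gate.

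For Nfkbid they were Dap (0.935), Gfod1 (0.934) and Gmip (0.934), with r of 0.880, 0.796 and 0.783 without the Car1 gate. Among the members, Nfkbiz and Nfkbid had an r of 0.836, and of 0.571 without the Car1 gate. Bcl3 had an r of 0.670 with Nfkbiz and 0.662 with Nfkbid, and of −0.06 and −0.23 without the Car1 gate, so the likeness of Bcl3 to the others rested on the low values of that gate.

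Bcl3 overlaps 2 antisense gene models on the plus strand, Gm16175 and Gm16174. Gm16175 had 0 UMIs in every pool, and Gm16174 stood at 3.31 and 2.29 CPM in IkBKO and 2.52 and 1.66 CPM in WT (0.52 ± 0.21 log2, SE, edgeR adjusted p = 0.15). The sources used here do not say whether the counting used strand, so reads of Bcl3 and Gm16174 may not be told apart where they overlap. Nfkbiz and Nfkbid overlap no other gene.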

How the data were processed

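The authors deposited, for each of 2 libraries, a matrix of raw UMI counts per gene and barcode, not normalized, with a table of quality and genotype calls. Per the file headers the matrices came from Cell Ranger 6.0.0; the submitters' processing notes name Cell Ranger 7.0, Seurat 4.3.0 and build mm10. The sources used here do not say which of them gave these values. The chemistry was Chromium 3′, per the labels' protocols. In replicate 1, 7683 of 9322 barcodes (82.4%) passed the deposited quality call, and in replicate 2, 10346 of 24787 (41.7%). These cells were used without a further filter or doublet caller.

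Counts were summed per genotype and library, over all cells and within gates. Genes were tested with edgeR 4.0.16 (filterByExpr, TMM, robust quasi-likelihood F test, two-sided) in R 4.3.3 with limma 3.58.1, replicate as a block, and Benjamini-Hochberg adjusted p of at most 0.05 called. The block reflects the shared library: deviations of same-numbered pools correlated at 0.686 over 14742 genes. Levels between gates and the genotype-by-gate interaction used cells of exactly 1 gate. After thinning, gates were drawn anew on the thinned counts with the same UMI minimum. Alternatives were DESeq2 1.42.0, other scaling, no filter, no block, left-out pools, thinning (seed 7), re-weighting by gate, and cells left out by S100a9 or Cd74 (at least 20 UMIs). The splits by Fos and Cd74, the exclusion by Fos and the cells of no gate were chosen after seeing the data. The steps were tested on simulated counts. Gene positions are from GENCODE vM21. Intervals and limits for counts of 0 cover counting error only.

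Members and lists were chosen with earlier results of these data known. Named genes are the members, the IκB and NF-κB genes, up to 3 genes of each other list with the smallest p, and the 3 genes most like each member; Zc3h12a, Rc3h2, Il4i1, Fscn1, Ccr7, the sort markers and the overlapping gene models were added. A gene that this rule named for Bcl3 is not reported here.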

Additional observations from a re-analysis of the deposited data

How the results depend on the processing

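Bcl3 over all LSK cells stayed called under every alternative except those without the replicate block. Without the block, edgeR gave 1.08 for Bcl3, −0.70 for Nfkbiz and −0.53 for Nfkbid (adjusted p = 0.37, 0.42 and 0.60) and called 0 genes, against 1964 with it (1410 at an unadjusted p under 0.05; DESeq2 with the block called 1575). With 1 pool left out, also without the block, Bcl3 lay between 0.79 and 1.36, Nfkbiz between −0.87 and −0.55, Nfkbid between −0.88 and −0.24, and 25 to 136 genes were called; a lone pool was assumed to vary like the others. Nfkbiz was not called after re-weighting (−0.33) or without cells with a Fos UMI (−0.26). Nfkbid was not called with DESeq2 (−0.53), without cells of at least 20 S100a9 UMIs (−0.54, adjusted p = 0.051), after re-weighting (−0.67) or without cells with a Fos UMI (−0.30). No low-count filter gave 3181 calls and re-weighting 453. Without the block the calls in the Mecom and Dntt gates were lost as well. For single gates, Nfkbiz in cells of no gate reversed to 0.28 without Fos cells, and the Nfkbid level in the Mecom gate reversed to −0.17 after thinning; neither was called before or after, and the causes were not tested. The number of cells limits the Car1, Pf4 and Mpo gates, where WT replicate 2 had 9, 196 and 40 cells. The pools keep only 1 residual degree of freedom per gene with the block.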
